A study of Mus musculus with 6 samples.

Results

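Glucose enters a cell through transporters of the Slc2a family and is broken down to pyruvate and lactate by the enzymes of glycolysis, and 10 genes of this route are described here: the glucose transporters Slc2a1 and Slc2a3, the hexokinases Hk1 and Hk2, the aldolases Aldoa and Aldoc, the phosphoglycerate kinase Pgk1, the enolase Eno1, the pyruvate kinase gene Pkm and the lactate dehydrogenase subunit Ldha. The 10 genes were chosen with earlier results of these data known. Shares of all probe sets set beside member counts below are therefore context and not a test. Probe sets were taken by gene symbol: every probe set of the array whose annotation gave 1 of these symbols as its only gene was taken. This gave 13 probe sets for 9 of the 10 genes, out of 12422 probe sets and 8251 named genes in all, and Eno1 was not analysed here. A floor of 6.60 was placed under the log2 values (96.9 on the linear scale), and 11 of the 13 probe sets, for 8 genes, lay above it on at least 2 of the 6 arrays and were tested, as were 7731 probe sets in all. The 2 others, the only probe set of Slc2a1 and a second one of Hk2, lay below it on every array.

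The arrays held RNA of whole uterus from 129/SvImJ wildtype female mice of 10 to 16 weeks whose ovaries had been taken out 14 days earlier, so that all groups lacked the hormones of the ovary. The uterus was collected without any injection, called 0 h, or 6, 12, 15, 18 and 24 h after 0.2 mg progesterone in 0.1 mL sesame oil under the skin. Each time was 1 Affymetrix array on a pool of 8 uterine horns of 4 mice, so no time was replicated and the number of arrays limits the precision. No array of mice given oil alone was analysed here. All differences from 0 h share that 1 uninjected pool.

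Progesterone, acting through its receptor Pgr, prepares the uterus for implantation, and stromal cells that decidualize are known for high glucose use. In glycolysis a hexokinase traps glucose as its phosphate, an aldolase splits the 6-carbon sugar, Pgk1 and pyruvate kinase make ATP, and lactate dehydrogenase turns pyruvate into lactate. Several steps have more than 1 gene: Slc2a1 and Slc2a3 are both high-affinity transporters, Hk1 is the widely expressed hexokinase and Hk2 the inducible one of muscle and fat, and Aldoa is the widely expressed aldolase while Aldoc is best known from brain. Many of these genes are targets of the hypoxia-inducible factor Hif1a, whose binding element has the core ACGTG.

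Median log2 values of the arrays lay between 7.12 and 7.22. The 0 h array stood somewhat apart, correlating with the progesterone arrays at 0.9321 to 0.9483 across the probe sets tested, against 0.953 to 0.9894 among the progesterone arrays. Of the markers on the array, 12 of 12 for epithelium, 8 of 9 for smooth muscle and 9 of 10 for stroma were above the floor often enough to be tested. Myl9 and Vim were below the floor throughout. The same filter passed 5915 of 8251 named genes, so these counts do not test the tissue label. Values on 1 probe set are compared only across arrays, not with those of another probe set.

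Promoter windows of 300 bases around an annotated start, from RefSeq on GRCm38.p6, are shown here for Hk2, Pgk1, Pkm, Ldha and Aldoc. Each window shown is one that holds ACGTG, and windows without it are not shown. Capitals mark ACGTG read on either strand. The Hk2 window is chr6:82774405-82774704 on the minus strand, that of Pgk1 is chrX:106186850-106187149 on the plus strand, the second annotated start of Pkm gives chr9:59656977-59657276 on the plus strand, the first of Ldha chr7:46845554-46845853 on the plus strand, and the first of Aldoc chr11:78322823-78323122 on the plus strand.
Hk2: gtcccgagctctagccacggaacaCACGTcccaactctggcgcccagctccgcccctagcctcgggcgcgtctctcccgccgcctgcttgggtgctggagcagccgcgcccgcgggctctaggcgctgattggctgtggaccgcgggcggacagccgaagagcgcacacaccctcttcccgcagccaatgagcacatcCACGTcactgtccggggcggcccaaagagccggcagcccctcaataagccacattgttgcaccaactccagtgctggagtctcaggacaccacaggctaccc
Pgk1: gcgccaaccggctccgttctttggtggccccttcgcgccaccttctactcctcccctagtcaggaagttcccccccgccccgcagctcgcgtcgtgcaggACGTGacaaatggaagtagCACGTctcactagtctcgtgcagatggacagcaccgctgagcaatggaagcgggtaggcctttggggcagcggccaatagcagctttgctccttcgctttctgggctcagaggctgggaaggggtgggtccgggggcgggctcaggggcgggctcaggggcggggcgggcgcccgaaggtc
Pkm: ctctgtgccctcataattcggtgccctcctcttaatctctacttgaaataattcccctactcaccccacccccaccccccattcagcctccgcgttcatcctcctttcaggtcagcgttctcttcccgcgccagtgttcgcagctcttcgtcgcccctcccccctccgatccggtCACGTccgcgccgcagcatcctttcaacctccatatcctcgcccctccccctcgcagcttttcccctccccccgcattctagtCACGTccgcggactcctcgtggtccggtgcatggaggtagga
Ldha: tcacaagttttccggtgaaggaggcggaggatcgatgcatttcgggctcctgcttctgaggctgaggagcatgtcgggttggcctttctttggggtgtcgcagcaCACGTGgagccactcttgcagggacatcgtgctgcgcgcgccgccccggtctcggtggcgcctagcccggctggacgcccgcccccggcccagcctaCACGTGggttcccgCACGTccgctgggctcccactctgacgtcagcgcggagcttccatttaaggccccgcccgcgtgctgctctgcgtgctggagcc
Aldoc: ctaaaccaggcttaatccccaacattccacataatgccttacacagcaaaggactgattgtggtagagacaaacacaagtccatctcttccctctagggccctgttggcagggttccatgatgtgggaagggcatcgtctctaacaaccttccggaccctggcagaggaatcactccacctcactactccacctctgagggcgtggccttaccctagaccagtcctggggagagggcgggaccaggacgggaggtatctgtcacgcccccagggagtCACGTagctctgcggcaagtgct
ACGTG occurred 2 times in the windows of Hk2, Pgk1 and Pkm, 5 times in that of Ldha, where CACGTG counts on both strands, and once in that of Aldoc. Over all 17 windows of 9 members it was found in 9, for 8 members, and 19.6% of the 32851 windows in the table hold it. The windows without it were those of Eno1 and another start each of Hk1, Aldoa, Aldoc, Pkm and Ldha. TGTTCT, part of the element bound by steroid receptors, was found on either strand in 3 of the 17, for Hk1 and Aldoa, against 19.0% of all windows. Some windows overlap, so these counts are not of separate sites: 2 windows of Aldoa hold the same ACGTG and the same TGTTCT, and 2 of Eno1 overlap. Slc2a3 was not analysed here for its promoter. These matches describe letters in a window and say nothing of binding.

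Slc2a3, a high-affinity glucose transporter, showed the highest increase of the members on both of its probe sets. Probe set 93804_at read 8.36 at 0 h, and 10.72, 10.08, 10.35, 9.72 and 10.05 in turn at 6, 12, 15, 18 and 24 h. Probe set 92292_at read 6.41, which is below the floor, at 0 h, and 9.26, 8.53, 8.78, 8.24 and 8.51 at 6, 12, 15, 18 and 24 h. All 5 progesterone arrays lay above 0 h on both probe sets, the 6 h array was the highest and the 18 h array the lowest of the 5. On 93804_at the level was 5.14-fold that of 0 h at 6 h and 2.57-fold at 18 h. On 92292_at the bounds were at least 6.31-fold (6 h) and 3.11-fold (18 h), since the 0 h value was set to the floor. Among all probe sets tested, these differences were the ninth and the fifth from the top at 6 h, and at 24 h they ranked 21 and 16 of 7700.

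The 5 progesterone arrays were set against the 0 h array with limma, which takes the spread between the 5 times as its error and assumes that the single 0 h array varies alike. Slc2a3 rose by 1.83 ± 0.31 on the log2 scale on 93804_at and by 2.06 ± 0.32 on 92292_at (SE; adjusted p = 0.029 and 0.023 by limma over 7724 probe sets). Over all probe sets, 0.893% rose and 1.8% fell in this comparison, 2.69% together, and of the 11 member probe sets 2 rose, both of Slc2a3, and 1 fell, that of Aldoc. At an unadjusted p under 0.05 there were 4 of the 11 higher and 1 lower, against 8.09% and 10.9% of all. The call of Slc2a3 was lost on both probe sets without the 12, 15 or 24 h array, with adjusted p up to 0.11 and 0.097, while the difference stayed between 1.69 and 1.94 on 93804_at and between 1.92 and 2.17 on 92292_at. On 92292_at a higher floor, at the 60th percentile, gave a difference of 0.96 that was not called.

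Slc2a1, the other transporter, was below the floor on all 6 arrays and was not tested. Its deposited values were 5.72 at 0 h, and 6.53, 6.55, 6.49, 5.87 and 5.71 in turn at 6, 12, 15, 18 and 24 h. The 6, 12 and 15 h arrays were the highest and 24 h equalled 0 h to within 0.014, all of them in the range set to the floor for the tests.

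**Figure D1:**
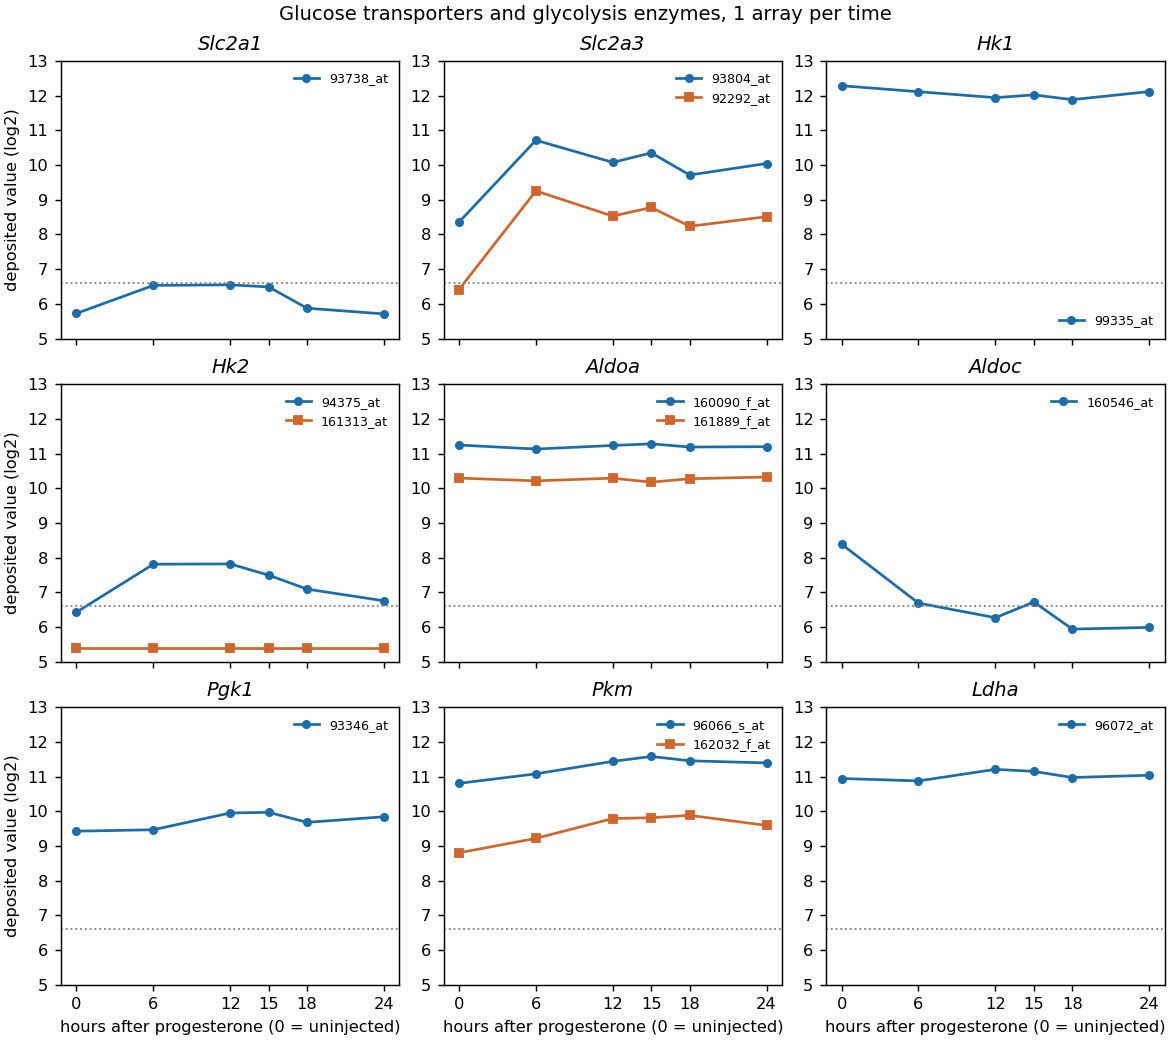
Deposited log2 value (vertical axis, the same range in every panel) of each member's probe sets against hours after progesterone, with uninjected uterus at 0. Each point is 1 array and the dotted line is the floor of 6.60; Slc2a3 and the main Hk2 probe set stand above their 0 h value at every later time, Aldoc stands below it, and the second Hk2 probe set lies at the lower limit of 5.39 throughout.

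The hexokinases trap glucose in the cell. Hk2 on probe set 94375_at read 6.42 at 0 h, below the floor, and 7.81, 7.82, 7.49, 7.09 and 6.75 in turn at 6, 12, 15, 18 and 24 h. The level was highest at 6 and 12 h and lower at each time from 15 h, so that the 24 h array lay 0.15 above the floor. Relative to 0 h the lower bounds were 2.31-fold (6 h), 2.33-fold (12 h), 1.86-fold (15 h), 1.41-fold (18 h) and 1.11-fold (24 h). The second probe set, 161313_at, was at the lower limit of the table on every array.

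Over the 5 progesterone arrays alone, a fit that does not use the 0 h pool, Hk2 fell by 1.17 ± 0.20 from 6 to 24 h (SE of a linear slope; adjusted p = 0.038, limma). Of 7729 probe sets 1.02% rose and 0.88% fell in this fit, 1.9% together, and Hk2 was the 1 member probe set called. Unadjusted p was under 0.05 for 3 of the 11, all falling, against 9.87% of all probe sets falling at that p. The call was lost when any 1 of the 5 arrays was left out, with adjusted p between 0.079 and 0.3 and slopes between -1.60 and -1.03. Against 0 h the mean of the 5 arrays was 0.79 ± 0.38 higher, which did not pass (adjusted p = 0.31, limma). Slc2a3 had slopes of -0.71 ± 0.28 and -0.76 ± 0.28 over the same 18 h, which did not pass (adjusted p = 0.19 and 0.18, limma).

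Hk1 read 12.29 at 0 h, and 12.12, 11.95, 12.03, 11.89 and 12.12 at 6, 12, 15, 18 and 24 h. Every progesterone array was below 0 h, by 0.17 to 0.40, and the mean difference of -0.27 ± 0.12 did not pass (adjusted p = 0.28, limma).

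Aldoc, the aldolase best known from brain, was the member that fell. It read 8.39 at 0 h, and 6.69, 6.27, 6.72, 5.94 and 5.99 at 6, 12, 15, 18 and 24 h. The 12, 18 and 24 h values were below the floor, and all 5 progesterone arrays lay below 0 h. The level was 3.25-fold lower at 6 h and 3.18-fold lower at 15 h, and at least 3.45-fold lower at the 3 other times. At 6 h this was the sixth lowest difference of 7719 probe sets. Set against 0 h, Aldoc fell by 1.75 ± 0.10 (SE; adjusted p = 0.00057, limma). Because 3 of its values were set to the floor, its spread is too narrow and this p can be too small; with the values as deposited the difference was -2.07 ± 0.32 (adjusted p = 0.018, limma). The call was kept in each of the 5 fits without 1 progesterone array, but these used the same floored values and share this limit.

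Aldoa, which catalyses the same step, gave differences of at most 0.12 in size. Probe set 160090_f_at read 11.25 at 0 h and 11.13, 11.23, 11.28, 11.19 and 11.20 at the later times, and 161889_f_at read 10.29 at 0 h and 10.21, 10.29, 10.17, 10.27 and 10.32. The 0 h value lay inside the range of the progesterone arrays on both, and the mean differences were -0.04 ± 0.11 and -0.04 ± 0.11 (adjusted p = 0.88 and 0.9, limma). Probe sets whose names end in f_at are built from probes shared within a gene family, so signal from related sequences cannot be told apart there.

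**Figure D2:**
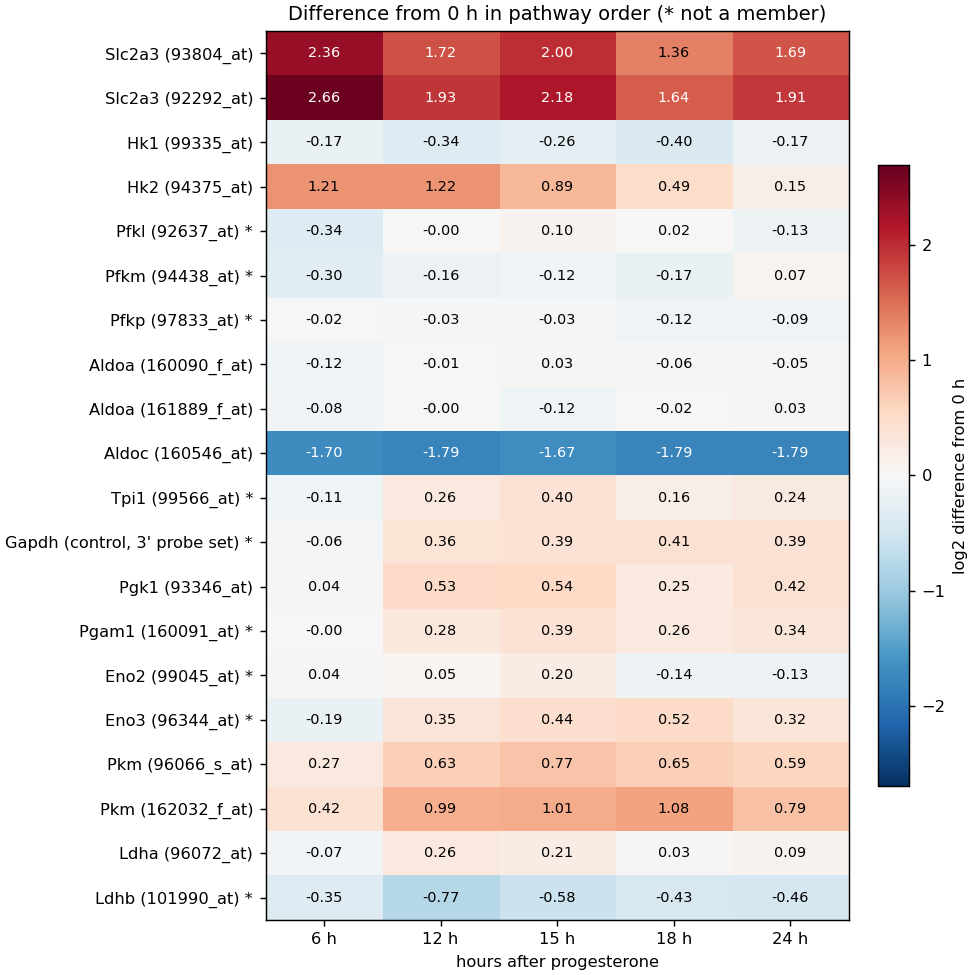
Log2 difference from 0 h (colour and printed number) at each time after progesterone, with genes in the order of the pathway and those outside the 10 members marked by a star. Slc2a3 is the strongest red in every column, with 2.36 and 2.66 at 6 h, Aldoc is the only strongly blue gene, and the rows from Tpi1 to Pgam1 are near 0 at 6 h and positive from 12 h; differences of Hk2, Slc2a3 92292_at and of Aldoc at 12, 18 and 24 h are limits.

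The later enzymes of the pathway gave smaller differences, and with all arrays in the fit none of them passed. Pkm, the pyruvate kinase gene of most tissues, read 10.81 at 0 h on probe set 96066_s_at, and 11.08, 11.44, 11.58, 11.46 and 11.40 at 6, 12, 15, 18 and 24 h. On 162032_f_at it read 8.80, and 9.22, 9.79, 9.82, 9.88 and 9.59. Every progesterone array was above 0 h on both probe sets, and the 6 h array was the lowest of the 5. The highest level was 1.71-fold that of 0 h on 96066_s_at, at 15 h, and 2.11-fold on 162032_f_at, at 18 h. The mean differences of 0.58 ± 0.17 and 0.86 ± 0.24 did not pass (adjusted p = 0.12 and 0.099, limma). Without the 6 h array both were called, at 0.66 and 0.97 (adjusted p = 0.021 and 0.019, limma), in a fit that called 590 probe sets, against 208 with all arrays.

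Pgk1, which makes the first ATP of the pathway, read 9.43 at 0 h, and 9.47, 9.95, 9.97, 9.68 and 9.84 in turn at 6, 12, 15, 18 and 24 h. The 6 h array was close to 0 h and the 4 later arrays were 1.19-fold to 1.46-fold above it. Its mean difference was 0.36 ± 0.20 (adjusted p = 0.38, limma). Ldha, the subunit that favours lactate formation, read 10.95 at 0 h and 10.88, 11.21, 11.15, 10.97 and 11.04 at the later times. The 6 h array lay below 0 h, the 12 and 15 h arrays were the highest, and the mean difference of 0.10 ± 0.14 did not pass (adjusted p = 0.76, limma).

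By direction alone, 6 of the 11 member probe sets had all 5 progesterone arrays above 0 h, those of Slc2a3, Hk2, Pgk1 and Pkm, and 2 had all 5 below, those of Hk1 and Aldoc. Over the 7672 probe sets measured on all arrays these shares were 20.4% and 27.2%. Counting any difference, the members were higher and lower than 0 h in 6 and 5 cases at 6 h, where 39.7% and 58.2% of all probe sets were. The counts were 7 and 4 at 12 h (54.4% and 44.8% of all), 8 and 3 at 15 h (53.4% and 45.5%), 7 and 4 at 18 h (42.8% and 55.6%) and 8 and 3 at 24 h (49.7% and 48.6%). At least 2-fold higher than 0 h were 3 member probe sets at each of 6, 12, 15 and 18 h (1.41%, 1.83%, 2.05% and 1.14% of all in turn), and 2 at 24 h (1.06%). The third beside Slc2a3 was Hk2 at 6 and 12 h and Pkm on 162032_f_at at 15 and 18 h. At least 2-fold lower was 1 at each time, Aldoc, where 1.1%, 1.75%, 1.58%, 1.8% and 1.39% of all probe sets were. A linear trend over all 6 arrays called 0 of the 11, and 0.194% of 7731 probe sets rose and 0.116% fell in it. Unadjusted p in that trend was under 0.05 for 3 of the 11, both Pkm probe sets (higher, as for 8.41% of all) and Aldoc (lower, as for 7.81%), and limma gave them adjusted p of 0.17, 0.18 and 0.2.

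**Figure D3:**
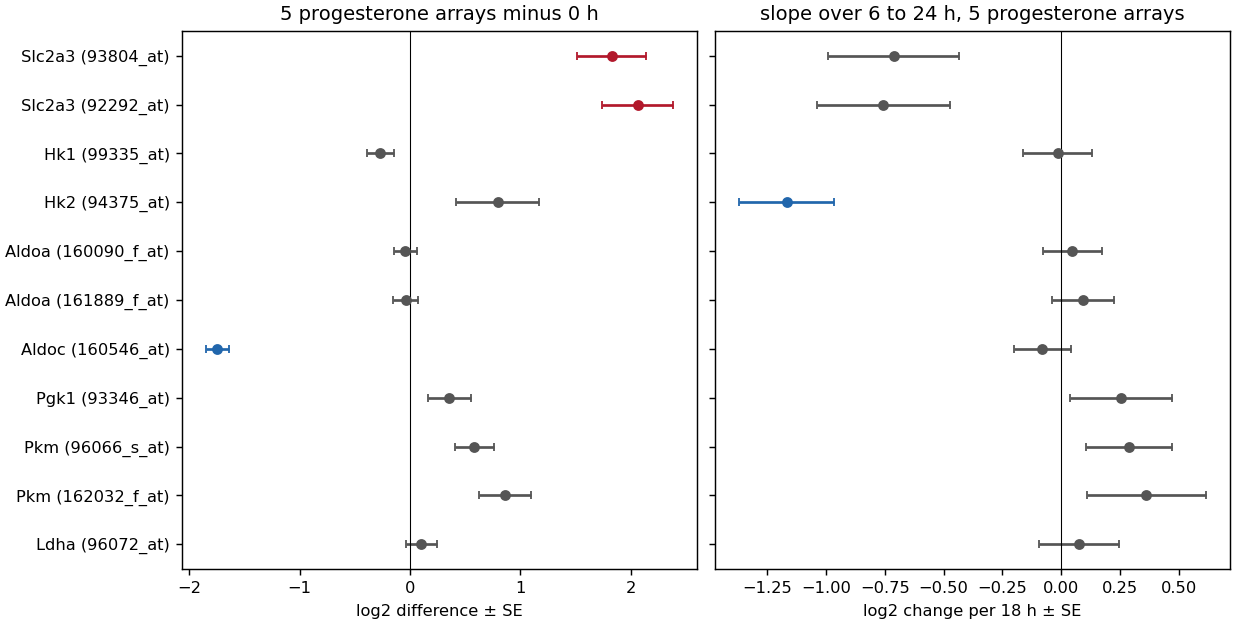
Effect ± SE (horizontal axis, log2) for the 11 member probe sets tested, on the left as the mean of the 5 progesterone arrays minus 0 h and on the right as the linear change from 6 to 24 h over the progesterone arrays. Red marks a rise and blue a fall at an adjusted p under 0.05, which are Slc2a3 and Aldoc on the left and Hk2 on the right.

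The remaining genes of glycolysis were described from a list of 24, of which 12 could be tested, and 0 of the 12 passed in any of the 3 limma fits; 3 of them had an unadjusted p under 0.05 in at least 1 fit, as had 39.7% of all probe sets. Their median difference from 0 h was -0.06, 0.08, 0.14, 0.04 and -0.05 at 6, 12, 15, 18 and 24 h, beside -0.05, 0.03, 0.03, -0.04 and 0.00 over all probe sets tested. The phosphofructokinases, which set the pace of glycolysis, lay between -0.34 and 0.10 for Pfkl, between -0.30 and 0.07 for Pfkm and between -0.12 and -0.02 for Pfkp. Tpi1, the triose isomerase, was at -0.11 at 6 h and 0.16 to 0.40 from 12 h. Pgam1, a phosphoglycerate mutase, was at 0.00 at 6 h and 0.26 to 0.39 from 12 h. Gapdh was read from the 3 control probe sets of the array, which were outside the fits and lay between -0.12 and -0.06 at 6 h and between 0.32 and 0.47 from 12 h. Its 3' probe set read 11.58 at 0 h, 11.52 at 6 h and 11.94, 11.97, 11.99 and 11.97 at 12, 15, 18 and 24 h. Ldhb, the other lactate dehydrogenase subunit, was at -0.35 to -0.77 at the 5 times and was picked after its values were seen. Other control probe sets differed between the same arrays. Beta-actin was higher than at 0 h by 0.14 to 0.45, and the spike-ins of the array lay at -0.38 to -0.08 for BioB, -0.30 to 0.07 for BioC, -0.23 to -0.01 for BioDn and -0.06 to 0.15 for CreX. Their part in the small differences of Pgk1, Ldha, Hk1 and Gapdh was not tested.

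The 9 lists of this and neighbouring pathways, without the members, held 132 genes, of which 77 could be tested. In the comparison with 0 h 0 of the 77 rose and 2 fell, beside 0.893% and 1.8% of all probe sets. Irs2, an adaptor of the insulin receptor, fell by 1.22 ± 0.11 (adjusted p = 0.0035, limma) and Mxi1, a repressor that competes with Myc, by 1.17 ± 0.15 (adjusted p = 0.0115, limma). Irs2 was called in each of the 5 fits without 1 progesterone array, and Mxi1 in 4, with an adjusted p of 0.05 without 15 h. Irs2 read 7.89 at 0 h, and 6.70, 6.65, 6.46, 6.45 and 6.81 at 6, 12, 15, 18 and 24 h, with 15 and 18 h below the floor. Setting these values to the floor narrows its spread, also in the fits without 1 array. With the values as deposited the difference of Irs2 was -1.28 ± 0.19 (adjusted p = 0.015, limma).

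Over the progesterone arrays alone 2 of the 77 rose and 1 fell from 6 to 24 h, beside 1.02% and 0.88% of all probe sets, each lost without any 1 of these arrays. Vegfa, the hypoxia-induced vascular growth factor, fell by 1.21 ± 0.15 (adjusted p = 0.0181, limma), with values of 7.56 at 0 h, and 8.19, 7.70, 7.63, 7.28 and 6.99 in turn at 6, 12, 15, 18 and 24 h. Pygm, the glycogen phosphorylase of muscle, rose by 0.91 ± 0.14 (adjusted p = 0.0305, limma) and also in the trend over all arrays, where it was the 1 gene called of the 77 (adjusted p = 0.0465, limma). That call was kept in 1 of 6 fits with an array left out and in 2 of 6 other settings. Pck2, the mitochondrial enzyme that makes phosphoenolpyruvate, rose by 1.08 ± 0.21 (adjusted p = 0.0499, limma) after reading 7.91 at 0 h and 7.06 at 6 h, and this call was kept in 1 of 7 other settings (adjusted p from 0.03 to 0.3, limma).

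Hif1a itself read 11.03 at 0 h, and 11.85, 11.75, 11.63, 11.22 and 11.37 at 6, 12, 15, 18 and 24 h on probe set 98628_f_at. All 5 progesterone arrays lay above 0 h with 6 h highest, and the mean difference of 0.53 ± 0.23 did not pass (adjusted p = 0.255, limma). The list of hypoxia-induced genes outside glycolysis, which also holds Hif1a, Epas1 and Arnt, had 17 genes tested. Of these 0 rose and 1 fell against 0 h, Mxi1, beside 0.893% and 1.8% of all probe sets. Higher than 0 h were 8, 9, 7, 5 and 6 of the 17 at 6, 12, 15, 18 and 24 h (39.7%, 54.4%, 53.4%, 42.8% and 49.7% of all). P4ha2, picked after its values were seen, lay above 0 h at every time, by 0.27 to 1.195, without passing (adjusted p = 0.263 against 0 h, limma). Ndrg1, a hypoxia-induced gene of differentiation, and Bhlhe40, a transcriptional repressor, were at -0.04 and -0.12 at 6 h and at -1.38 and -1.36 at 18 h, without passing (adjusted p = 0.274 and 0.297 against 0 h, limma). Pdk3, a kinase that switches off pyruvate dehydrogenase, read 8.05 at 0 h, had no value at 6 h, and read 9.89, 9.58, 9.08 and 9.09 at 12, 15, 18 and 24 h; its mean difference of 1.36 ± 0.32, from 5 arrays, did not pass (adjusted p = 0.0776, limma).

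**Figure D4:**
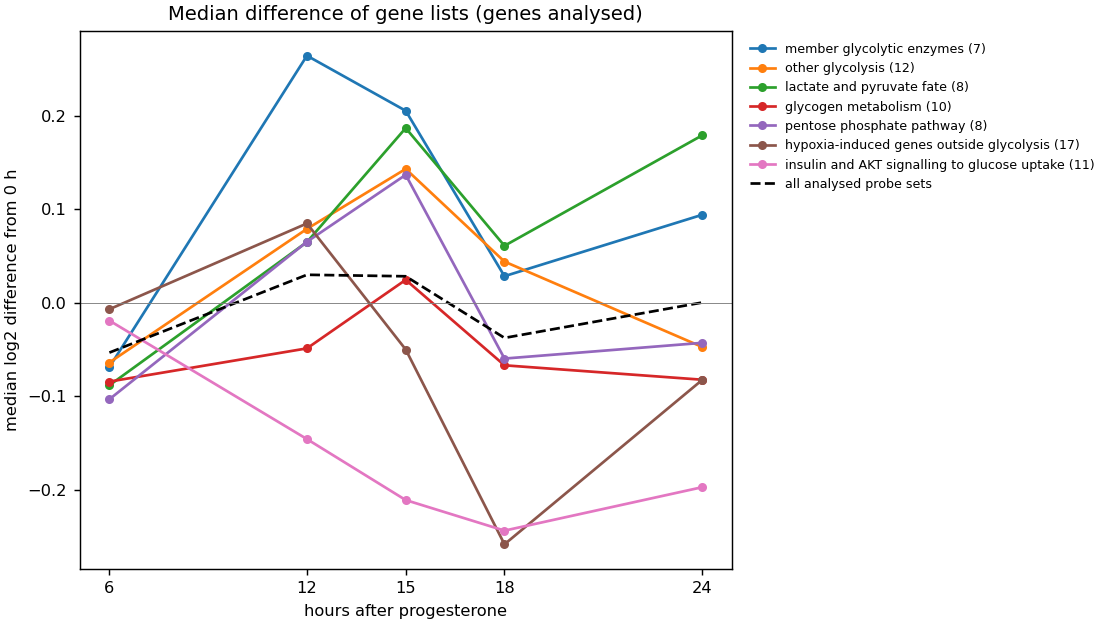
Median log2 difference from 0 h (vertical axis) against hours after progesterone for the gene lists with at least 5 genes tested, with 1 probe set per gene and the number of genes in brackets; the dashed line is the median of all 7731 probe sets. The 7 member enzymes reach 0.26 at 12 h. The list of insulin and AKT signalling lies below the dashed line from 12 h, at -0.24 at 18 h. That of hypoxia-induced genes lies below it from 15 h, at -0.26 at 18 h.

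Markers of the cell types of the uterus were read on the same arrays; in whole tissue, fewer cells of a type and less RNA per cell cannot be told apart. The 12 epithelium markers tested had medians from -0.48 to -0.41. Their summed linear level was 8031 to 9451 on the progesterone arrays, against 11377 at 0 h. In the fit against 0 h 3 of the 12 fell, as did 1.8% of all probe sets. Higher than 0 h was 1 of the 12 at 18 h, and 3 were at each other time. Cldn3 lay above 0 h at every time, by 0.26 to 0.56. Stroma markers, of which 9 of 10 were tested, had medians from 0.25 to 0.45 and sums of 16758 to 20082, against 15150 at 0 h. Of the 9, 5 were higher than 0 h at 6 h and 8 at 24 h. Col1a1 read 10.06 at 0 h and 10.57 to 11.85 later, and Col3a1 read 10.78 and then 11.03 to 11.90. Dcn lay at -0.40 to -0.02 from 0 h, Pdgfra at -0.07 to 0.13, and Lum at -1.22 at 6 h and 0.22 at 24 h. Smooth muscle markers, of which 8 of 9 were tested, had a median of -0.13 at 6 h and of 0.28 to 0.52 from 12 h. Their sums were 16055 at 6 h and 19625 to 22743 from 12 h, against 16751 at 0 h. Endothelium markers, of which 9 of 10 were tested and Pecam1 lay below the floor throughout, had medians from -0.22 to 0.04 and sums of 3712 to 4193, against 4841 at 0 h. Cldn5 gave most of the difference in the sums, with 10.13 at 0 h and 8.65 to 9.08 later. It was the 1 of the 9 that fell in the fit against 0 h, as did 1.8% of all probe sets. Macrophage markers, of which 8 of 9 were tested and Adgre1 lay below the floor throughout, had medians from -0.30 to 0.07 and sums of 3703 to 4201, against 4182 at 0 h. Neuron and Schwann cell markers had medians from 0.01 to 0.05 over 4 of 8 tested, with Snap25, Nefl, Nefm and S100b below the floor on every array. Their sums were 2895 to 3265 on the progesterone arrays, against 2627 at 0 h, with most of the difference from Tubb3 on a probe set of the f_at kind, at 9.82 to 10.22 against 9.16 at 0 h. Skeletal muscle markers summed to 2808 to 4399, against 1284 at 0 h, with 5 of 9 tested and Mb, Myh1, Tnnt3 and Myl1 below the floor throughout. Acta1 gave most of this, with 9.16 at 0 h and 11.04 to 11.71 later. Adipocyte markers, with 4 of 7 tested and Fabp4, Cidec and Pparg below the floor, summed to 1046 to 1429, against 2019 at 0 h, leaving out Lpl, which had no value at 0 h. Adipoq read 9.41 at 0 h and 6.89 to 8.45 later, and Retn read 9.38 and then 8.39 to 8.78. Lep lay at -0.21 to 0.02 from 0 h. The part of any of these in the differences of Slc2a3, Hk2, Aldoc, Pkm, Pgk1, Tpi1, Gapdh or Pgam1 was not tested.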

How the data were processed

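The log2 values per probe set were deposited by the authors as a value table of 12487 rows for 6 Affymetrix arrays. Background correction, normalization and software are not given in the labels. The 65 control probe sets were left out, which left 12422, and 10833 of these had 1 gene symbol in the platform annotation, 396 several and 1193 none. The log base was read from the values: 99.76% of values turned back with base 2 had 4 decimals. Values were used as deposited, since the 2% trimmed means lay within 5% of their median. Values under the 40th percentile of all values were set to that floor, and probe sets above it on at least 2 arrays were tested.

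Tests used limma 3.58.1 in R 4.3.3 (lmFit, then eBayes with an intensity trend) with Benjamini-Hochberg adjustment over all probe sets tested and a threshold of 0.05. The 3 fits were the 5 progesterone arrays against 0 h, a linear trend over all 6 arrays given per 24 h, and a linear trend over the 5 progesterone arrays given per 18 h. The script was tested on simulated data. Single times were compared with 0 h without a test. A gene of a list was represented by its probe set with the highest mean. Summed marker levels are linear and use genes with a value on every array.

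The 10 genes and all lists were chosen with earlier results of these data known. Every probe set of the 10 genes was named. Other genes were named where they passed a fit or were at least 2-fold from 0 h at 2 or more times, and Gapdh, Tpi1, Pgam1, Pfkl, Pfkm, Pfkp, Hif1a and Vegfa in any case. Alternatives were other floors, no floor, no filter, quantile normalization, median centring, eBayes without a trend and leaving out each array. Proteins were not used here.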

Additional observations from a re-analysis of the deposited data

How the results depend on the processing

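Counts of calls depended on single arrays, and the causes were not tested. Against 0 h, limma called 208 probe sets, and 43 to 590 when 1 progesterone array was left out, the lowest without 12 h and the highest without 6 h (47, 58 and 90 when 15, 18 or 24 h was the one left out). Of the members 3 were called, and 1 to 5 with 1 array left out: Aldoc alone without 12, 15 or 24 h, and both Pkm probe sets in addition without 6 h. A floor at the 60th percentile left 1 called (Slc2a3 93804_at), where Aldoc was no longer tested, and with no filter 1 (Aldoc). The trend over all arrays called 24 (15 rose and 9 fell), 53 with no floor (29 rose and 24 fell), 10 with quantile normalization (5 rose and 5 fell) and 0 with no filter (1219 at an unadjusted p under 0.05, limma). With 1 array left out it called 0 to 147, the highest when 0 h was left out, with 52 for 24 h, 1 for 6 h and 0 for 12, 15 or 18 h (1118, 1045 and 929 at an unadjusted p under 0.05, limma). Of the members 0 were called with all arrays, 1 without 0 h (Hk2) and 1 without 24 h (Pkm 162032_f_at). The trend over progesterone arrays called 147, 71 with the floor at the 60th percentile, 285 with no floor, 243 with quantile normalization and 0 with no filter (1486 at an unadjusted p under 0.05, limma). With 1 array left out it called 0 to 36: 0 without 6, 12 or 18 h (938, 1385 and 1421 at an unadjusted p under 0.05, limma), 14 without 15 h and 36 without 24 h. Hk2, the 1 member called there, gave 0 calls with the floor at the 60th percentile, with no filter and with any 1 array left out. At 2-fold, the floor at the 60th percentile left 44, 87, 77, 87 and 59 probe sets lower at 6, 12, 15, 18 and 24 h, in place of 85, 135, 122, 139 and 107, and 92 higher at 12 h in place of 141. Of the members it left 0 lower at every time, and 1 higher at 12 h and 1 at 24 h. No called value given an alternative changed sign. Of the uncalled ones, Aldoa differences at 15 and 18 h did in 4 rescaled values (all under 0.1 in size), as did 1 list median, of the hypoxia-induced genes at 6 h. The balance of calls turned in the trend over all arrays without 24 h (19 rose and 33 fell) and in the trend over progesterone arrays with quantile normalization (118 rose and 125 fell, in place of 79 and 68). Hif1a, Ndrg1, Bhlhe40 and Pdk3 were not run under the alternatives. Signal near the floor limits Slc2a1, Hk2, Aldoc and Slc2a3 on 92292_at. No paired analysis was possible because each time has 1 array.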
